A study of Mus musculus with 24 samples.

Results

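Myofibroblast and smooth muscle genes are described here in 24 RNA-seq libraries of whole kidneys, each from a different C57BL/6 mouse aged 18 days (on a C57BL/6 J background per the study's methods). The genes are Acta2, Tagln, Actg2, Myh11, Cnn1, Des, Pdgfrb, Postn, Fn1 and Tnc, which are 10 of the 54532 genes in the count table. The 10 were chosen by gene name as contractile and fibroblast activation genes, and Actg2 was also chosen by its values, being much lower in cystic kidneys with the edited Pkd1 allele than in those without. Actg2 therefore carries no test in any comparison that uses RC/- libraries, edited or not, and its values there are a description. All 10 genes passed the limit on low counts, which left 22570 genes for testing.

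All 24 mice had 1 RC copy of the polycystin-1 gene Pkd1, which holds a missense change and yields less mature protein. In RC/+ mice the other Pkd1 allele was a loxP-flanked but intact allele, and these mice are labelled as controls. In RC/- mice the other allele was inactivated by Ksp-Cre, a Cre transgene that is active in tubule epithelium, and these kidneys are labelled cystic. The RC/+ mice carried no Cre, so Cre and the cystic genotype cannot be told apart. In the D18 and D53 lines the motif that binds miR-17 had been deleted from the RC allele, and each line descends from 1 founder (founder 3 for D18 and founder 2 for D53). The labels give no founder for the unedited groups. By the paper's account a breeding pair could yield edited and unedited mice, so the unedited groups need not be a separate line. There were 3 mice in each of the noncystic groups (RC/+, RC/+ D18, RC/+ D53) and 5 in each of the cystic groups (RC/-, and the D18 and D53 lines of RC/-). Because the samples are whole kidneys, more cells of a type and more RNA per cell cannot be told apart.

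Myofibroblasts are matrix-producing cells that carry the contractile apparatus of smooth muscle, and they appear in the interstitium of injured or fibrotic kidneys. Smooth muscle actin, transgelin, calponin and smooth muscle myosin are also present in the normal walls of renal arteries and of the renal pelvis and ureter. Fibronectin, tenascin-C and periostin are secreted matrix proteins that fibroblasts deposit during repair, and PDGF receptor beta marks pericytes and interstitial fibroblasts. Many contractile genes are activated by serum response factor, which binds a short DNA element named the CArG box, together with cofactors of the myocardin family.

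The mature miRNA and the Pkd1 site that the edit removes are shown because all comparisons of edited with unedited kidneys turn on them. The miRNA is encoded on the plus strand of GRCm38.p6 chr14:115043684-115043706, and capitals mark its seed (bases 2 to 8). The Pkd1 stretch lies in the 3′ UTR, in exon 46 of 46, on the plus strand of GRCm38 chr17:24595718-24595739, and capitals mark the bases complementary to the seed.
mmu-miR-17-5p: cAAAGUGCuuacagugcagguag
Pkd1 site: catatggggcttctGCACTTTa
The 7-base seed match GCACTTT, searched on the transcribed strand alone, occurred 1 time in the 969 bases of this Pkd1 3′ UTR. It occurred in 0 of the 10 genes' annotated 3′ UTRs (80 to 1673 bases long), and in 10.9% of the 20631 protein-coding genes with an annotated 3′ UTR. The absence of these letters says nothing about other ways in which a miRNA may bind.

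Acta2 and Actg2, the smooth muscle actins of the vascular and the enteric type, are paralogs, so reads from one could be assigned to the other. Acta2 lies on the minus strand of GRCm38 chr19:34241090-34255590 and Actg2 on the minus strand of chr6:83512905-83536265. Their coding sequences were 84.2% identical over 1134 aligned positions, with a longest identical stretch of 29 bases. The start of each coding sequence is shown, with capitals at the bases that differ in the alignment or have no partner in it. The Acta2 bases lie in exon 2 of 9 at chr19:34252434-34252553 and those of Actg2 in exon 2 of 9 at chr6:83527325-83527441.
Acta2: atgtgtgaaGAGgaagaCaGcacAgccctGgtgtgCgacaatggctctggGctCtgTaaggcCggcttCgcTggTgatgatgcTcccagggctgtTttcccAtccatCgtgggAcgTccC
Actg2: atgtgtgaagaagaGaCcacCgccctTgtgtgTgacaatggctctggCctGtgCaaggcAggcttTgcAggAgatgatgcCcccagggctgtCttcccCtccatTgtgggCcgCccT
In these first 120 coding bases of Acta2, 22 were in capitals. Most of these capitals stand alone between identical neighbours. Acta2 shared 82.5% with the cardiac actin Actc1 and 85.4% with the skeletal muscle actin Acta1.

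Levels of different genes were compared as CPM (read counts scaled so that the totals of all libraries are equal) per kilobase of annotated exon. In RC/+ kidneys the mean level per kilobase was 46.4 ± 5.18 for Acta2, 19.97 ± 4.05 for Fn1, 17.3 ± 2.89 for Pdgfrb and 16.4 ± 3.73 for Postn (SD, n = 3). Tnc (7.62 ± 0.861), Des (5.01 ± 0.205) and Myh11 (3.80 ± 0.566) were intermediate on the same scale. Cnn1 (1.47 ± 0.544), Actg2 (1.12 ± 0.680) and Tagln (0.193 ± 0.0721) were lowest. Acta2 had the highest mean of the 10, and Tagln, which encodes the actin-binding protein transgelin, rested on 5 to 12 reads per RC/+ library. In RC/- kidneys the mean level per kilobase was 219 ± 54.3 for Acta2 and 54.6 ± 7.99 for Fn1 (SD, n = 5), and Actg2, at 15.3 ± 6.47, came before Cnn1 (8.90 ± 3.79), Des (8.54 ± 1.43) and Myh11, having been below all 3 in RC/+.

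Tagln needs a further note on its annotation. Of its exon bases on the minus strand of GRCm38 chr9:45929619-45936058, 67.9% also lie in exons of genes on the opposite strand, mostly of the antisense gene Gm48529. Gm48529 itself was counted with 2 to 37 reads per library. Which strand setting was used for counting is not stated, so reads in these bases cannot be assigned to either strand here, and their part in the low Tagln count was not tested. Of the other contractile genes, Myh11 lies at chr16:14194535-14291372 (minus strand), Cnn1 at chr9:22099216-22109630 and Des at chr1:75360329-75368579 (both plus). Postn lies at chr3:54361109-54391037 and Pdgfrb at chr18:61045150-61085061 (both plus), and Fn1 at chr1:71585520-71653200 and Tnc at chr4:63959785-64047015 (both minus). In the 9 genes other than Tagln the share of exon bases in common with another gene was at most 5.86% (Des).

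Total counts per library were 20.4 to 30.8 M. Pkd1, whose edit lies in the 3′ UTR so that its total count does not check the labels, was counted at 49.9 to 51.5 CPM in RC/+ and at 52.0 to 65.2 CPM in RC/- libraries, and at 38.4 to 71.4 CPM in the edited groups. Transcripts of 12 skeletal muscle markers summed to 9.45 to 15.3 CPM in libraries 4 to 19, and to 179.6 to 237 CPM in libraries 20 to 27 (3 of the 5 RC/- D18 and all 5 RC/- D53 mice). Total counts were used for scaling as in the study's methods. Under TMM factors (a scaling to typical genes) the median over all genes in RC/- against RC/+ kidneys was a log2 fold change of 0.01 in place of 0.14, so that about 0.13 of each log2 difference in that comparison depends on the scaling. In RC/- D18 against RC/- the same medians were 0.00 and -0.10.

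The question of the main comparison was which of the 10 genes differ in cystic kidneys. Among the 9 genes tested, 7 were higher in RC/- than in RC/+ kidneys and 0 were lower (limma-trend, Benjamini-Hochberg adjusted p below 0.05 over all 22570 genes). Over all genes, 25.5% were higher by the same rule, and the median log2 fold change was 1.24 for the 9 genes and 0.14 for all genes. Under TMM factors 7 of the 9 were higher too, while the share of the called genes of the whole table that were higher fell from 67.7% to 49.7%. By role, 5 of 5 contractile genes and 2 of 4 receptor and matrix genes rose. All 5 RC/- libraries were above all 3 RC/+ libraries for 7 of the 9 genes, against 26% of all genes.

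**Figure D1:**
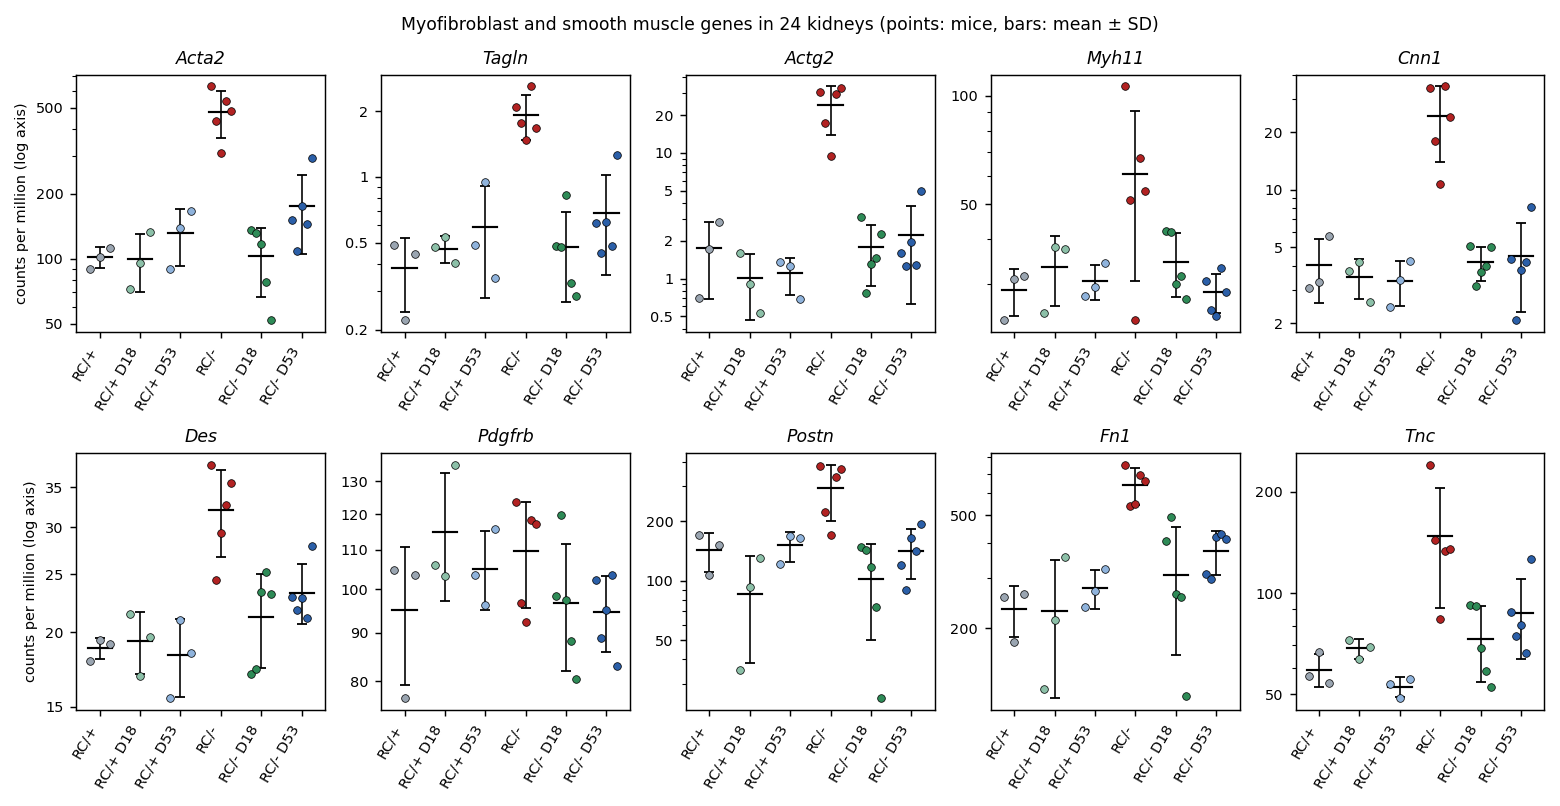
CPM of the 10 genes (logarithmic vertical axis) in each of the 24 kidneys, by group (horizontal axis). Points are mice in order of replicate number, horizontal bars are group means and vertical bars the SD. RC/- libraries stand above the RC/+ libraries without overlap for Acta2, Tagln, Actg2, Cnn1, Des, Postn, Fn1 and Tnc, and overlap them for Myh11 and Pdgfrb.

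Actg2, the gene singled out in the choice, was at 0.694, 1.73 and 2.81 CPM in the RC/+ libraries and at 30.2, 17.1, 9.45, 29.4 and 32.9 CPM in RC/- replicates 13 to 17. RC/- D18 libraries (replicates 18 to 22) held 3.07, 0.767, 1.29, 1.45 and 2.27 CPM, and RC/- D53 libraries (replicates 23 to 27) held 1.59, 1.26, 1.94, 1.28 and 5.02 CPM. Every RC/- library was thus above every library of the other 5 groups, and the edited cystic groups overlapped the noncystic ones. The fitted log2 differences, given without a test, were 3.77 for RC/- against RC/+, -3.70 for RC/- D18 against RC/- and -3.45 for RC/- D53 against RC/-. In noncystic mice, where Actg2 was tested, the log2 fold change was -0.66 ± 0.56 (SE) in RC/+ D18 and -0.48 ± 0.56 in RC/+ D53 against RC/+, with adjusted p of 0.983 and 1 (limma-trend).

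Acta2 (alpha smooth muscle actin, the usual marker of myofibroblasts) was at 90.2, 102 and 113 CPM in RC/+ and at 630.2, 437, 310.3, 540.0 and 483 CPM in RC/- replicates 13 to 17. The lowest RC/- library, replicate 15, was still more than any noncystic library (72.8 to 166 CPM). The log2 fold change was 2.20 ± 0.30 (SE), a 4.61-fold higher level, with an adjusted p of 2.6e-06 (limma-trend).

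Cnn1, which encodes calponin 1, an actin-binding protein of differentiated smooth muscle, was at 3.06, 3.27 and 5.74 CPM in RC/+ and at 34.1, 17.9, 10.8, 34.8 and 24.2 CPM in RC/- kidneys. Replicate 15 was again the lowest of the RC/- kidneys, and the groups did not overlap. The log2 fold change was 2.51 ± 0.35 (adjusted p = 4.5e-06, limma-trend), the largest among the 9 tested genes. Tagln was at 0.490, 0.221 and 0.442 CPM in RC/+ and at 2.10, 1.77, 1.47, 2.60 and 1.68 CPM in RC/- (37 to 62 reads per library). Its log2 fold change was 2.14 ± 0.35 (adjusted p = 2.6e-05, limma-trend).

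Myh11, the heavy chain of smooth muscle myosin and the most restricted smooth muscle marker of the group, was at 23.9, 31.1 and 31.6 CPM in RC/+ and at 106, 51.4, 23.9, 67.3 and 54.5 CPM in RC/- kidneys. Replicate 15 was level with the lowest control and the other 4 cystic kidneys were above all controls, so the groups overlapped. The log2 fold change was 0.92 ± 0.28 (adjusted p = 0.0098, limma-trend). The call was lost without RC/+ replicate 4 (0.79, adjusted p = 0.059) and in a fit to the groups compared alone (adjusted p = 0.069).

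Des (desmin, an intermediate filament of muscle cells that is also found in pericytes and podocytes) was at 17.9, 19.4 and 19.1 CPM in RC/+ and at 38.2, 24.5, 29.3, 32.7 and 35.6 CPM in RC/-. Its log2 fold change was 0.75 ± 0.14 (adjusted p = 0.00019, limma-trend), the smallest among the 5 contractile genes tested, and the groups did not overlap.

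Among the matrix genes, Fn1 (fibronectin) was at 258, 179 and 263 CPM in RC/+ and at 754, 537, 549, 691 and 659 CPM in RC/- kidneys. The groups were far apart, and the log2 fold change was 1.46 ± 0.32 (adjusted p = 0.00082, limma-trend). Tnc (tenascin-C, an adhesion-modulating glycoprotein) was at 56.7, 66.8 and 54.2 CPM in RC/+ and at 241, 144, 83.6, 134 and 135 CPM in RC/-. Its log2 fold change was 1.24 ± 0.23 (adjusted p = 0.00014, limma-trend), with replicate 13 the highest and replicate 15 the lowest cystic kidney.

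Postn (periostin, a matricellular protein that fibroblasts secrete in fibrosis) was at 169, 107 and 152 CPM in RC/+ and at 379.5, 222, 171, 334 and 367 CPM in RC/- replicates 13 to 17. The groups did not overlap, but replicate 15 lay next to the highest control, and the log2 difference of 1.01 ± 0.44 did not pass the threshold (adjusted p = 0.074, limma-trend). It passed without replicate 15 (1.19, adjusted p = 0.043), in a fit to the groups compared alone (adjusted p = 0.011) and with libraries 20 to 27 as a covariate (adjusted p = 0.046). Pdgfrb, the receptor for PDGF-B on pericytes and fibroblasts, was at 76.7 to 105 CPM in RC/+ and at 92.4 to 124 CPM in RC/-. These ranges overlapped, and the log2 difference was 0.21 (95% interval -0.05 to 0.48, adjusted p = 0.21, limma-trend).

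The comparison of edited with unedited cystic kidneys asked whether these levels differ once the miR-17 motif is absent. In RC/- D18 against RC/- kidneys 8 of the 9 tested genes were lower and 0 were higher, against 26.9% of all genes that were lower by the same rule. In RC/- D53 against RC/- kidneys 8 of the 9 were lower and 0 were higher, against 18.9% of all genes. The median log2 fold change of the 9 genes was -1.20 in D18 and -0.94 in D53, and that of all genes -0.10 and -0.08. Under TMM factors the counts were 7 and 6, and the share of the called genes of the whole table that were higher moved from 34.8% to 50.2% in D18 and from 37.4% to 53.3% in D53. Pdgfrb was the exception in each line (log2 differences of -0.18 and -0.21, adjusted p of 0.20 and 0.17, limma-trend). Both comparisons and that of RC/- with RC/+ use the same 5 RC/- libraries, so their values are not independent of each other.

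**Figure D2:**
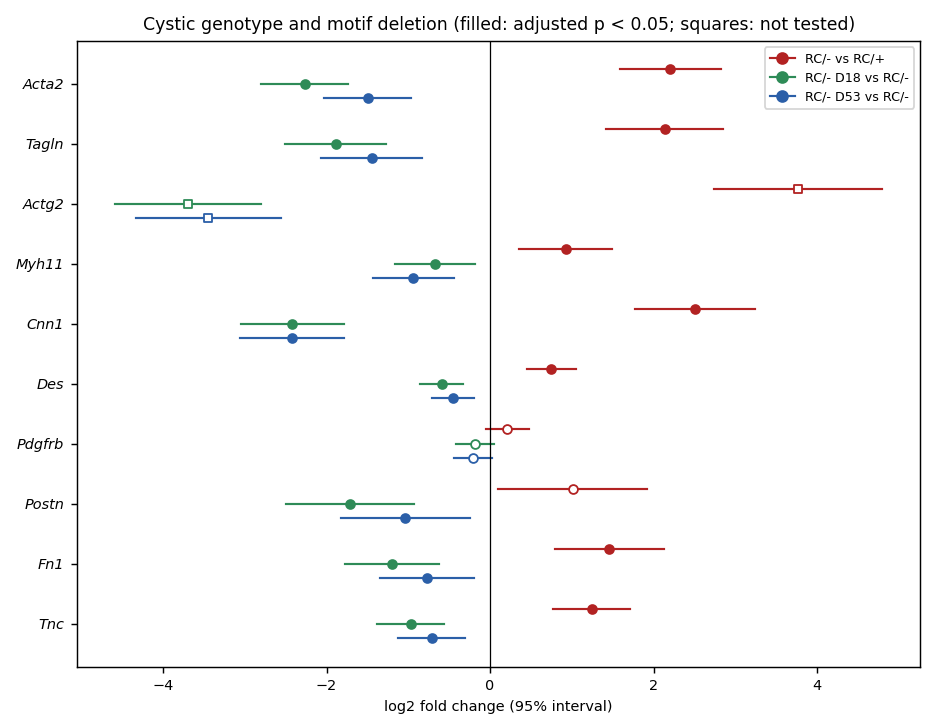
Log2 fold changes of the 10 genes with 95% intervals (horizontal axis) in RC/- against RC/+, RC/- D18 against RC/- and RC/- D53 against RC/- kidneys. Filled circles passed an adjusted p of 0.05 and squares mark Actg2, which was not tested. The intervals drawn for Actg2 carry no test, because the gene was chosen by its values. The 8 genes lower in each edited line sit to the left of 0 and Pdgfrb lies near 0 in each comparison.

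Acta2 was at 135, 131, 118, 78.5 and 52.1 CPM in RC/- D18 replicates 18 to 22 and at 152, 109, 177, 145 and 292 CPM in RC/- D53 replicates 23 to 27. All 10 edited libraries were below the lowest RC/- library, and RC/- D53 replicate 27 came closest to it. The log2 fold change of Acta2 was -2.27 ± 0.26 in D18 and -1.499 ± 0.26 in D53 (adjusted p of 1.9e-07 and 9.5e-05, limma-trend).

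Cnn1 was at 5.08, 3.11, 3.69, 3.98 and 5.01 CPM in RC/- D18 and at 4.31, 2.08, 3.78, 4.18 and 8.12 CPM in RC/- D53. None of these reached the lowest RC/- library. The decreases were almost equal in both lines: Cnn1 fell by 2.42 ± 0.31 in each (adjusted p of 8.3e-07 and 2.0e-06, limma-trend). Tagln was at 0.482, 0.479, 0.824, 0.325 and 0.284 CPM in RC/- D18 and at 0.616, 0.448, 0.623, 0.483 and 1.26 CPM in RC/- D53, again below all RC/- libraries. Tagln fell by 1.89 ± 0.30 in D18 and by 1.45 ± 0.30 in D53 (adjusted p of 1.7e-05 and 0.00061, limma-trend), with 8 to 21 and 11 to 35 reads per library.

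Myh11 was at 42.2, 42.0, 30.1, 31.7 and 27.4 CPM in RC/- D18 and at 30.8, 25.5, 24.6, 33.3 and 28.7 CPM in RC/- D53. All 10 values were above RC/- replicate 15 and below the other 4 RC/- libraries. Myh11 fell by 0.67 ± 0.24 in D18 (adjusted p = 0.026, limma-trend) and by 0.94 ± 0.24 in D53 (adjusted p = 0.0039, limma-trend). The D18 call was lost under TMM factors (adjusted p = 0.059), in a fit to the groups compared alone (0.096) and without any one of RC/- replicates 13 and 16 or RC/- D18 replicates 20, 21 and 22 (adjusted p of 0.0528 to 0.107).

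Des was at 16.997, 17.3, 23.4, 25.2 and 23.2 CPM in RC/- D18 and at 22.9, 21.8, 22.8, 21.1 and 27.9 CPM in RC/- D53. The edited groups each overlapped RC/- replicate 14, which was at 24.5 CPM. Des fell by 0.59 ± 0.12 in D18 and by 0.45 ± 0.12 in D53 (adjusted p of 0.00043 and 0.0077, limma-trend). Des is also made by skeletal muscle, and RC/- D18 replicates 20 to 22, which are high in skeletal muscle transcripts, were at 23.2 to 25.2 CPM while replicates 18 and 19, at the low level of the remaining libraries, were at 16.997 and 17.3 CPM. The part of skeletal muscle in the Des level was not tested.

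Postn was at 148, 143, 117, 73.9 and 25.4 CPM in RC/- D18 and at 120.5, 89.3, 164, 142 and 194 CPM in RC/- D53. RC/- D18 replicate 22 was the lowest of the 24 libraries, and only RC/- D53 replicate 27 reached above the lowest RC/- library. Postn fell by 1.71 ± 0.38 in D18 (adjusted p = 0.00077, limma-trend) and by 1.04 ± 0.38 in D53 (adjusted p = 0.041, limma-trend). Fn1 was at 407, 491, 264, 258 and 115 CPM in RC/- D18 and at 309, 297, 419.7, 429.8 and 413 CPM in RC/- D53. All 10 were below the lowest RC/- library, and Fn1 fell by 1.203 ± 0.28 and by 0.78 ± 0.28 (adjusted p of 0.0011 and 0.037, limma-trend).

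The D53 calls of Postn and Fn1 were close to the threshold. Both were lost under TMM factors (adjusted p of 0.053 and 0.050228), without a filter on low counts (0.071 and 0.064), and without any one of RC/- replicates 13, 16 and 17 or RC/- D53 replicates 23 and 24 (0.066 to 0.11). Postn was also lost without RC/- D53 replicate 26 (0.064).

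Tnc was at 92.3, 91.7, 68.9, 58.8 and 52.8 CPM in RC/- D18 and at 88.0, 74.7, 80.3, 66.2 and 126 CPM in RC/- D53. Each edited group overlapped RC/- replicate 15, at 83.6 CPM. Tnc fell by 0.97 ± 0.20 in D18 and by 0.72 ± 0.20 in D53 (adjusted p of 0.00036 and 0.0080, limma-trend). Over the 9 tested genes, all 5 libraries of RC/- D18 were below all RC/- libraries for 5 genes (Acta2, Tagln, Cnn1, Postn and Fn1), against 18.8% of all genes, and those of RC/- D53 for 4 genes (the same without Postn), against 11.8%.

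Within RC/- D18, replicates 18 and 19 were the highest of the group for Acta2, Myh11, Postn, Fn1 and Tnc, and the lowest for Des. With RC/- D18 represented by these replicates alone, a choice made after the data were seen, 4 of the 9 genes were lower than in RC/- (Acta2, Tagln, Cnn1 and Des), and the differences of Myh11 (-0.37), Postn (-0.95), Fn1 (-0.50) and Tnc (-0.60) had adjusted p of 0.061 to 0.43 (limma-trend). With libraries 20 to 27 as a covariate, 4 genes were lower in D18 and 2 in D53 (Cnn1 and Des). All 5 RC/- D53 libraries are among libraries 20 to 27, so the term is estimated from RC/- D18 alone. In RC/- D53 against RC/- the edit and what sets these libraries apart cannot be told apart, nor can the cystic genotype and what sets them apart in RC/- D53 against RC/+ D53 and in the D53 interaction given further on.

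The remaining comparisons asked whether a cystic difference was still seen within each edited line. In RC/- D18 against RC/+ D18 kidneys 0 of the 9 genes passed the threshold by limma-trend, where 0.266% of all genes passed. By edgeR and DESeq2 0 of the 9 passed too, where 37 and 143 of all genes did. At an unadjusted p below 0.05 there were 0 of the 9, where 8.91% of all genes were. In RC/- D53 against RC/+ D53 kidneys it was again 0 by all 3 tools, where 2.6% of all genes passed by limma-trend, 460 genes by edgeR and 728 by DESeq2. At an unadjusted p below 0.05 there were 2 (Des and Tnc), where 13.3% of all genes were. In a fit to these groups alone Tnc passed (0.69, adjusted p = 0.022, limma-trend). A difference that misses the threshold is not shown to be 0, so the intervals are given. For Acta2 the log2 difference was -0.01 (95% interval -0.62 to 0.61) in the D18 line and 0.38 (-0.24 to 0.9958) in the D53 line, each interval ending below the unedited interval of 1.59 to 2.82. For Tnc the values were 0.05 (-0.42 to 0.53) in D18 and 0.69 (0.21 to 1.17) in D53, with the D53 interval reaching into the unedited one of 0.76 to 1.72.

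**Figure D3:**
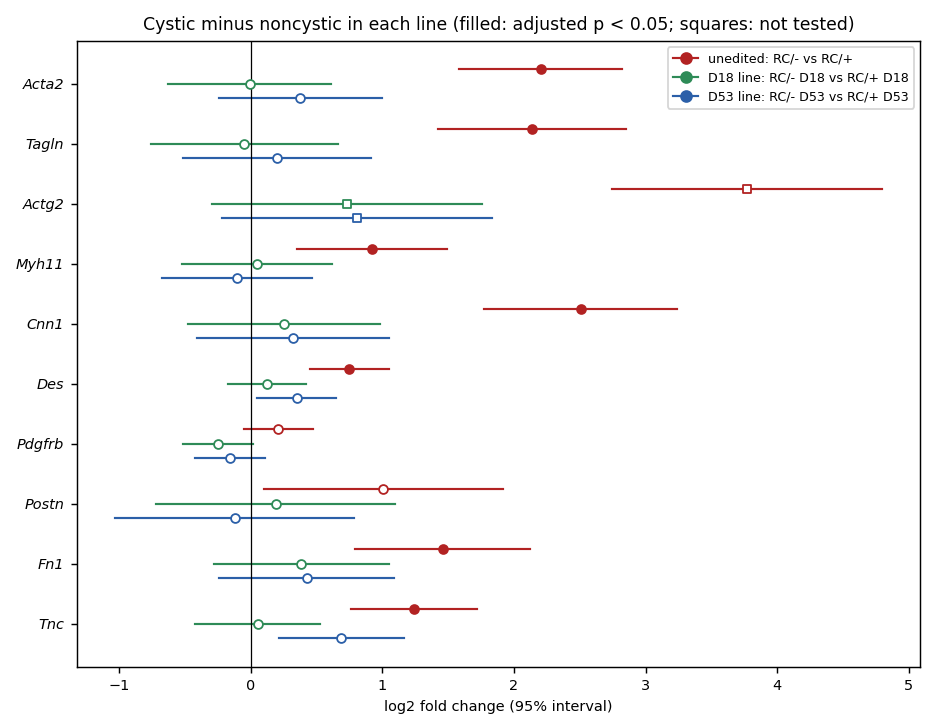
Log2 difference of cystic minus noncystic kidneys (horizontal axis, with 95% intervals) for the 10 genes in the unedited groups and in the D18 and D53 lines, which share no library. Filled circles passed an adjusted p of 0.05 and squares mark Actg2, which was not tested. The intervals drawn for Actg2 carry no test, because the gene was chosen by its values. The unedited values of Acta2, Tagln and Cnn1 lie at 2.14 to 2.51 and those of the edited lines between -0.05 and 0.38.

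Whether the cystic difference itself was smaller in an edited line was tested by an interaction contrast, the difference within the edited line minus that between the unedited groups. In D18 it passed the threshold and was negative for 5 of the 9 genes (Acta2, Tagln, Cnn1, Des and Tnc), as it was for 10.8% of all genes. The values were -2.21 ± 0.42 for Acta2, -2.18 ± 0.49 for Tagln, -2.25 ± 0.50 for Cnn1, -0.63 ± 0.20 for Des and -1.19 ± 0.33 for Tnc (adjusted p of 0.00076, 0.0030, 0.0028, 0.035 and 0.013, limma-trend). In D53 it passed and was negative for 3 genes, and for 6.55% of all genes. Under TMM factors 4 and 3 of the 9 passed, and the share of positive values among all genes called moved from 36.9% to 51.5% in D18 and from 41.9% to 60.2% in D53. The 3 genes in D53 were Acta2 (-1.83 ± 0.42), Tagln (-1.94 ± 0.49) and Cnn1 (-2.18 ± 0.50), with adjusted p of 0.0064, 0.012 and 0.0060 (limma-trend). With libraries 20 to 27 as a covariate 0 of the 9 passed in D53. The contrasts of Acta2, Tagln and Cnn1 were then between -2.25 and -1.06, with adjusted p of 0.33, 0.17 and 0.085 (limma-trend), and those of Postn, Fn1 and Tnc were above 0.

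The Des contrast in D18 was not stable. It missed the threshold under TMM factors (adjusted p = 0.096), by edgeR (0.099), by DESeq2 (0.07), without a filter on low counts (0.055), in a fit to the groups compared alone (0.055) and without any one of RC/+ replicates 4 to 6, RC/+ D18 replicates 7 and 9, RC/- replicates 13, 16 and 17 or RC/- D18 replicates 18 and 19 (0.0511 to 0.084). Tagln in D53 was lost without RC/+ replicate 5 (adjusted p = 0.050) or RC/+ D53 replicate 11 (0.051). Without RC/- replicate 15 the Myh11 contrast passed in D18 (-1.17, adjusted p = 0.0062) and in D53 (-1.32, adjusted p = 0.0041). In D18, Fn1 passed without RC/+ D18 replicate 7 (-1.47, adjusted p = 0.024) and without RC/- D18 replicate 19 (-1.28, adjusted p = 0.039), and Pdgfrb passed without the latter (-0.54, adjusted p = 0.031). With RC/- D18 represented by replicates 18 and 19 alone, Tnc missed the threshold (-0.81, adjusted p = 0.15). In D53 the contrast of Myh11 passed by DESeq2 (adjusted p = 0.026) and that of Fn1 in a fit to the groups compared alone (adjusted p = 0.0060).

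The lines were also compared with each other and in noncystic mice. In RC/- D53 against RC/- D18 kidneys 0 of the 9 genes passed by limma-trend, edgeR or DESeq2, where 0.266% of all genes did by limma-trend. At an unadjusted p below 0.05 there was 1, Acta2, which was 0.77 higher on the log2 scale in D53 (95% interval 0.23 to 1.31, adjusted p = 0.23, limma-trend). Of all genes 13.3% were below that unadjusted p, a share near that of the 9. In RC/+ D18 against RC/+ kidneys 0 of the 10 genes passed by the same 3 tools, where 0.00443% of all genes (1 gene) passed by limma-trend. At an unadjusted p below 0.05 there were 0 of the 10, where 4.49% of all genes were. In RC/+ D53 against RC/+ kidneys it was 0 of 10 by the 3 tools and 0 at an unadjusted p below 0.05, where 0% of all genes passed by limma-trend (0 genes by edgeR and DESeq2 too) and 525 genes had an unadjusted p below 0.05. With 3 mice per group the intervals were wide: for Postn in RC/+ D18 the log2 difference was -0.89 (95% interval -1.91 to 0.12).

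The order of the group means placed RC/- highest for 9 of the 10 genes. Actg2, among the 9, was chosen by its values in RC/- and edited libraries. How many of all genes share this order was not computed, so it is a description. Against RC/+ alone, every RC/- library was above every RC/+ library for 26% of all genes. For Acta2, Tagln, Actg2, Cnn1, Postn and Fn1 the RC/- libraries did not overlap those of the next group in the order. For Myh11, Des and Tnc they did. Pdgfrb was the exception, with its highest mean in RC/+ D18 (115 ± 17.7 CPM, SD, n = 3) and its lowest in RC/- D53 (94.6 ± 8.72 CPM, n = 5), and each group in its order overlapped the next. The other 5 groups overlapped their neighbours in the order for each of the 10 genes.

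The CArG box was searched in the 250 bases before the RefSeq start (GRCm38.p6, both strands, the element being its own reverse complement). Entries were available for Acta2, Cnn1, Des, Postn and Tnc, with 2 starts each for Postn and Tnc. Tagln, Actg2, Fn1, Myh11 and Pdgfrb were not searched. The strict box (CC, 6 A or T bases, GG) occurred in 0 of these 7 windows and in 1.47% of 32851 promoters. A form with 1 departure in the 6 central bases, added after the strict search, occurred at 2 positions of the Acta2 window and in none of the other 6. Of all promoters 8.59% held at least 1 such match and 0.67% at least 2. Both Acta2 stretches are shown in the direction of transcription with the match in capitals, because Acta2 is the most abundant gene of the group. They lie on the minus strand at chr19:34255438-34255467 and chr19:34255388-34255417, and start 84 and 34 bases before the RefSeq start, counted to the first base of each match.
Acta2 upstream match: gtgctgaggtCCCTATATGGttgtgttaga
Acta2 downstream match: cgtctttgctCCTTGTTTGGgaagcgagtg
In the GENCODE M21 annotation 217 of the 250 bases lie in the first exon of Acta2, so the annotations place the start differently. A match is a description of letters and not a shown binding site.

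Among 15 other smooth muscle contractile genes, 9 were higher in RC/- than in RC/+ kidneys, 0 were lower, and the median log2 fold change was 0.62. The largest among those called were the tropomyosins Tpm1 (1.74 ± 0.10) and Tpm2 (1.52 ± 0.16), the actin crosslinker Actn1 (1.63 ± 0.08) and leiomodin 1, Lmod1 (0.99 ± 0.26), with adjusted p of 1.8e-12 to 0.0034 (limma-trend). Tpm1 rose from 259 ± 11.4 CPM (SD, n = 3) to 865 ± 68.1 CPM (n = 5) and Lmod1 from 5.0015 ± 0.0945 to 10.8 ± 3.99 CPM. Of the 15, 9 were lower in RC/- D18 and 10 in RC/- D53 than in RC/-. Over all genes, for this list and those below, 25.5% were higher and 2744 of 22570 were lower in RC/- against RC/+. In RC/- D18 and RC/- D53 against RC/-, 26.9% and 18.9% of all genes were lower, and 3238 and 2543 were higher. In RC/- D53 against RC/+ D53 kidneys Tpm1, Tpm2 and Actn1 were higher (0.62, 0.61 and 0.51 on the log2 scale, adjusted p of 0.00088, 0.037 and 0.00068, limma-trend). In the same comparison, which sets 5 libraries high in skeletal muscle transcripts against 3 low ones, 11 of 11 skeletal muscle markers were higher (median log2 fold change of 4.61), and their part in the result was not tested. Within the D18 line 0 of the 15 passed by limma-trend, edgeR or DESeq2, with 3 at an unadjusted p below 0.05, where 8.91% of all genes were. Under TMM factors 7 were higher in RC/- than in RC/+, and 8 and 7 were lower in the edited groups.

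Of 8 regulators of contractile genes, 3 were higher in RC/- against RC/+ kidneys, and the median log2 fold change of the 8 was 0.37. These were the myocardin-related cofactors Mrtfa (0.79 ± 0.09) and Mrtfb (0.49 ± 0.11) and the cytokine Tgfb1 (0.42 ± 0.13), with adjusted p of 1.4e-07, 0.00088 and 0.010 (limma-trend). Tgfb1 was lost under TMM factors (adjusted p = 0.067, limma-trend), which left 2 of the 8. Over all genes 25.5% were higher in RC/- against RC/+, a share near that of the 8. In each edited cystic group 5 of the 8 were lower than in RC/-, including Mrtfa, which fell by 0.68 in D18 and by 0.42 in D53 on the log2 scale. In RC/- D53 against RC/+ D53 kidneys Mrtfa was still higher (0.47, adjusted p = 0.0021, limma-trend), as 1 of the 8. Within the D18 line 0 of the 8 passed. Serum response factor itself (Srf, named after its values were seen) differed by 0.16 ± 0.15 in RC/- against RC/+ (adjusted p = 0.43, limma-trend).

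Of the 4 actins outside the group, Actc1, Actb and Actg1 were higher in RC/- kidneys (adjusted p of 5.4e-06, 5.8e-06 and 0.00046, limma-trend), with log2 fold changes of 0.81 ± 0.12 for Actb and 0.37 ± 0.08 for Actg1. Actc1, the cardiac actin, was at 0 to 0.0817 CPM in RC/+ libraries and at 0.845 to 1.33 CPM in RC/- libraries, and its fold change is left out because it would depend on the prior count. The cytoplasmic actins Actb and Actg1 stood at 1283 ± 112 and 955 ± 59.0 CPM in RC/- (SD, n = 5). All 3 were lower in both edited cystic groups, where Actc1 was at 0.0479 to 0.196 CPM (D18) and 0.0814 to 0.866 CPM (D53), and under TMM factors 2 of the 3 were lower in D53. The skeletal actin Acta1, named after its values were seen, was higher in both (1.71 and 2.77 on the log2 scale), and it is one of the skeletal muscle markers that set libraries 20 to 27 apart.

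Around the PDGF receptor, 1 of 5 ligands and partners was higher and 1 lower in RC/- kidneys, where 25.5% of all genes were higher. Pdgfb, the main ligand of PDGF receptor beta, was at 58.3 to 63.5 CPM in RC/+ and at 101 to 136 CPM in RC/-. It rose by 0.87 ± 0.09 on the log2 scale (adjusted p = 1.1e-07, limma-trend). Pdgfc was lower by -0.41 ± 0.10 (adjusted p = 0.0023, limma-trend). Pdgfb fell by 0.97 in RC/- D18 and by 0.82 in RC/- D53 against RC/-, and Pdgfc rose by 0.42 and 0.40. The receptor Pdgfrb, by contrast, did not pass the threshold in any comparison of groups.

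Among the other 3 tenascins, Tnn was lower in RC/- (-2.10 ± 0.75, adjusted p = 0.030, limma-trend) and Tnxb did not pass (-0.17 ± 0.20). By edgeR and by DESeq2 0 of the 3 passed. Tnn varied widely, from 0.531 to 15.4 CPM in RC/- and from 8.29 to 22.6 CPM in RC/+ libraries. Of 8 integrin chains that bind fibronectin, tenascin-C or periostin, 5 were higher and 1 was lower in RC/-, where 25.5% of all genes were higher. Itga5, the alpha chain of the classical fibronectin receptor, rose by 0.50 ± 0.12, Itgb3 by 0.50 ± 0.16 and Itgb5 by 0.33 ± 0.07 (adjusted p of 0.0026, 0.017 and 0.00038, limma-trend). Under TMM factors 2 were higher and 1 was lower, with Itgb3 lost (adjusted p = 0.097). Itga8, a mesangial and smooth muscle integrin chain, was the lower one (-0.62 ± 0.22, adjusted p = 0.032, limma-trend), and it rose by 0.63 in RC/- D18 and by 0.65 in RC/- D53 against RC/-.

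Of 12 other fibroblast activation genes, 10 were higher in RC/- kidneys, and 12 were lower in RC/- D18 and 10 in RC/- D53 than in RC/-. Their median log2 fold changes were 1.19, -1.23 and -0.92. The largest among those called were the surface glycoprotein Thy1 (2.73 ± 0.34), the secreted protein Cthrc1 (2.05 ± 0.36) and the thrombospondins Thbs2 (1.56 ± 0.32) and Thbs1 (1.34 ± 0.12), with adjusted p of 9.4e-09 to 0.00035 (limma-trend). Thy1 was at 5.66 to 11.2 CPM in RC/+, 36.8 to 81.7 CPM in RC/-, 3.16 to 10.3 CPM in RC/- D18 and 9.44 to 23.2 CPM in RC/- D53 libraries. The RC/- range was apart from the other 3. Under TMM factors 9 of the 12 were higher in RC/-, and 10 were lower in each edited group.

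Markers of other cell types moved with the groups and are given beside the results. Of 9 fibroblast markers 7 were higher in RC/-, led by Mfap5 (2.82 ± 0.38), Mfap4 (2.57 ± 0.32), Col1a1 (2.04 ± 0.25) and Lum (1.35 ± 0.34), and their sum was 1351 to 1879 CPM in RC/+ and 3006 to 4876 CPM in RC/- libraries. That sum was 915 to 2469 CPM in RC/- D18 and 1632 to 2635 CPM in RC/- D53. Pdgfra, a receptor of fibroblasts named here after its values were seen, was at -0.44 ± 0.21 on the log2 scale under total counts (adjusted p = 0.10, limma-trend) and was lower under TMM factors (-0.58, adjusted p = 0.021).

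Of 7 pericyte and vascular wall markers, 3 were higher (Notch3 0.87 ± 0.14, Mcam 0.72 ± 0.17 and Cspg4 0.64 ± 0.09) and Ren1, the renin of juxtaglomerular cells, was lower (-1.26 ± 0.33). Their sum was 533 to 541 CPM in RC/+ and 419 to 640.0 CPM in RC/-, with overlap. Of 6 endothelial markers 3 were lower (Tek -0.71 ± 0.14, Emcn -0.58 ± 0.15 and Kdr -0.35 ± 0.13). Over all genes 25.5% were higher and 2744 of 22570 were lower in RC/- against RC/+. Of 8 tubule and podocyte markers 7 were lower, among them Slc12a3 (-1.76 ± 0.21), Slc34a1 (-1.58 ± 0.21) and Lrp2 (-1.35 ± 0.19), and 1 was higher. Tubule and podocyte markers summed to 9453 to 10666 CPM in RC/+ and to 3487 to 7054 CPM in RC/-. No fibroblast, vascular wall, endothelial or tubule marker was at 0 in any library, and their part in the levels of the 10 genes was not tested.

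Urothelium, the lining of the renal pelvis, lies beside the smooth muscle of the pelvic wall. The summed level of 7 urothelium markers was 45.8, 113 and 93.3 CPM in RC/+ and 197, 226, 31.3, 224 and 137 CPM in RC/- replicates 13 to 17. Replicate 15, the lowest of the RC/- kidneys for Acta2, Tagln, Actg2, Myh11, Cnn1, Postn, Pdgfrb and Tnc, was also the lowest for these markers. The low level was not particular to urothelium. Replicate 15 was the lowest RC/- kidney for the fibroblast (3006 CPM), endothelial (435 CPM) and skeletal muscle (12.2 CPM) sums too. For the vascular wall and the tubule and podocyte sums another RC/- kidney was the lowest. By limma-trend, edgeR and DESeq2, 0 of the 7 passed in RC/- against RC/+, with 0 at an unadjusted p below 0.05 (Krt5 0.90 ± 0.53 and Upk3b 0.89 ± 0.46 on the log2 scale, adjusted p of 0.19 and 0.13, limma-trend), while 2 were lower in RC/- D18 and 3 in RC/- D53 (1 under TMM factors) than in RC/-. Of all genes 45.5% had an unadjusted p below 0.05 in RC/- against RC/+, and 26.9% and 18.9% were lower in the edited groups. In RC/- D53 the urothelium sum was 39.6 to 58.6 CPM in replicates 23 to 26 and 105 CPM in replicate 27, the library in which Acta2, Tagln, Actg2, Cnn1, Des, Postn and Tnc were highest within the group. Replicate 27 was also the highest of its group for the fibroblast and vascular wall sums. It was the lowest for the tubule and podocyte sum. No urothelium marker was at 0 in any library, and the share of pelvic wall in each sample was not tested.

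The other 4 RC/- libraries were above all RC/+ libraries for the urothelium sum. In replicate 15, where that sum was at 31.3 CPM and below all 3 RC/+ libraries, Acta2 (310.3 CPM) and Cnn1 (10.8 CPM) were above all noncystic libraries, Postn (171 CPM) was next to the highest of them (169 CPM), and Myh11 (23.9 CPM) was level with the lowest. Of the skeletal muscle markers 0 of the 11 tested passed in RC/- against RC/+ (0 by limma-trend, edgeR and DESeq2 and 0 at an unadjusted p below 0.05), and 8 were higher in RC/- D18 and 11 in RC/- D53 than in RC/-. Between 0 and 6 of the 12 skeletal muscle markers were at 0 in a library.

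**Figure D4:**
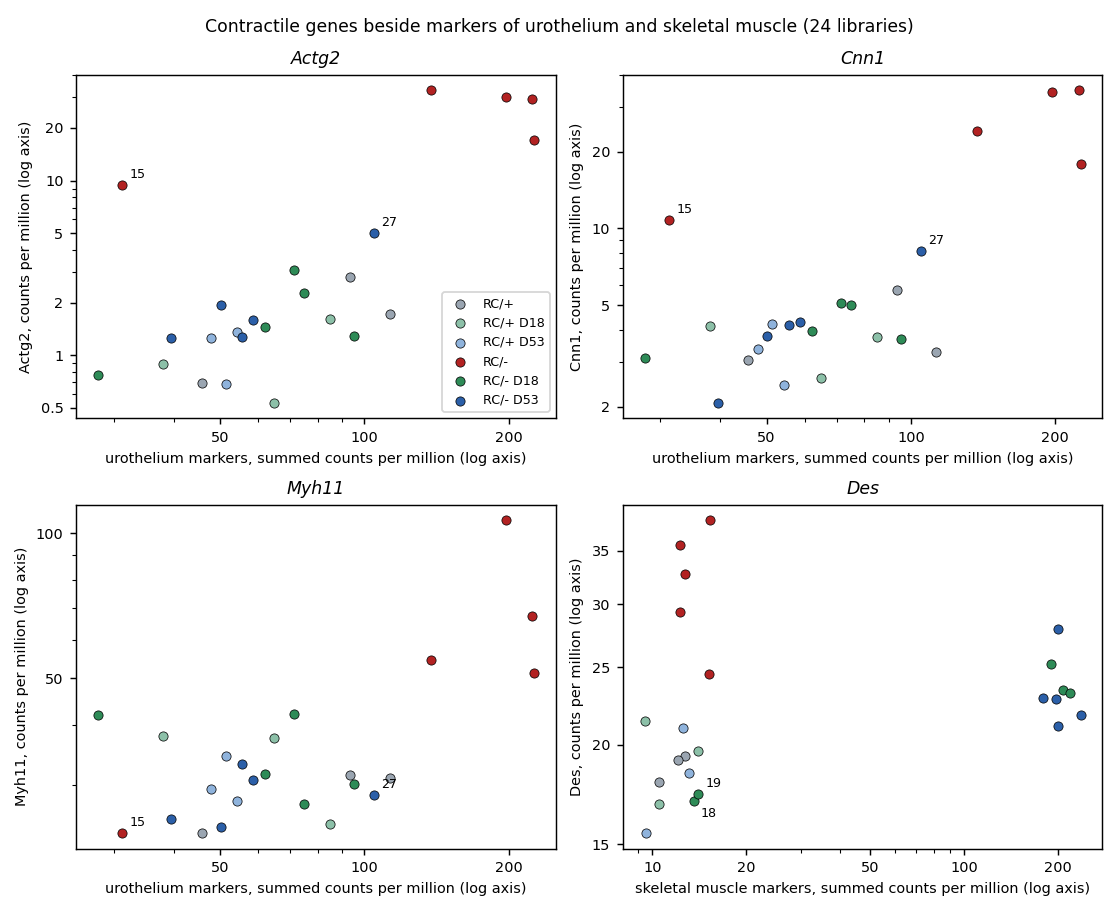
CPM of Actg2, Cnn1 and Myh11 (vertical axes, logarithmic) against the summed CPM of 7 urothelium markers, and of Des against 12 skeletal muscle markers (horizontal axes, logarithmic), in 24 libraries coloured by group. RC/- replicate 15 lies at 31.3 CPM of urothelium markers and the other 4 RC/- libraries at 137 to 226 CPM. RC/- D18 replicates 18 and 19 lie at the left of the Des panel with 16.997 and 17.3 CPM.

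How the genes varied among mice of one group was described by Pearson correlations of the deviations from the group means of log2 CPM over 24 libraries. The values of a library share its depth and its piece of tissue, and the correlations are descriptions without a test. Among the 4 receptor and matrix genes the 6 correlations ranged from 0.32 to 0.93 with a median of 0.58, and the highest was that of Postn with Fn1. Among the 6 contractile genes the 15 correlations ranged from 0.07 to 0.74 with a median of 0.40, and the highest was that of Actg2 with Cnn1. Acta2 varied more closely with the matrix genes Postn (0.86), Fn1 (0.77) and Tnc (0.72) than with Actg2 (0.24), and Actg2 was near 0 or negative with Postn (-0.02), Fn1 (-0.21) and Pdgfrb (-0.24).

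**Figure D5:**
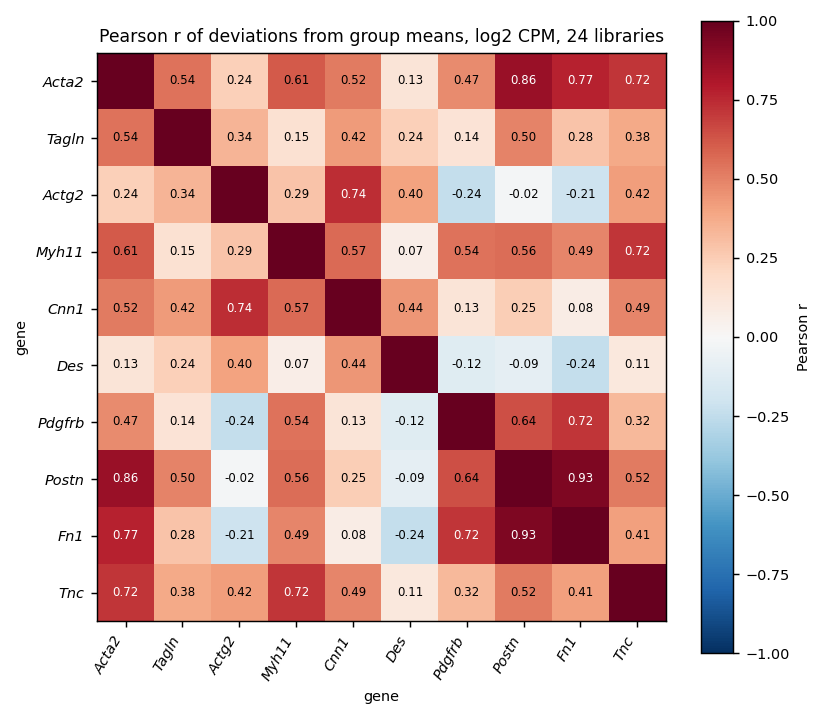
Pearson correlation between each pair of the 10 genes (both axes), computed from deviations of log2 CPM from the group mean in 24 libraries, with the coefficient printed in each cell. Acta2, Postn and Fn1 are correlated at 0.77 to 0.93, and Actg2 and Cnn1 at 0.74.

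The deviations were also set against the urothelium sum. The correlation was 0.68 for Actg2, 0.64 for Cnn1, 0.48 for Myh11 and 0.48 for Tnc, and between -0.16 and 0.37 for the other 6. With the skeletal muscle sum it was 0.59 for Des and between -0.55 (Fn1) and 0.03 for the other 9. Among genes whose log2 CPM averaged 0 or more, those most like Actg2 within groups were Ctse (0.73), Mrps31 (0.71), Sprr1a (0.71), Upk2 (0.70) and Tmprss13 (0.70). The partners named here and below are the highest of all such genes, so high values come with the selection and were not tested. Upk2 is a uroplakin of the urothelium, Ctse a protease and Sprr1a a protein of stratified epithelium.

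The genes most like Acta2 were Myl9, the regulatory light chain of smooth muscle myosin (0.95), and Myadm (0.92). For Postn they were the secreted proteins Fstl1 (0.98) and Fbln1 (0.97), and for Fn1 the extracellular matrix genes Col15a1 (0.97) and Hmcn1 (0.96). For Pdgfrb they were Gucy1b1, a subunit of soluble guanylate cyclase (0.90), and Mrvi1 (0.88), and for Tnc Spon2 (0.90) and S1pr3 (0.83). For the other contractile genes they were Atf5 (0.86) and Reep5 (0.80) beside Tagln, Atoh8 (0.85) and Mertk (0.80) beside Myh11, Gngt2 (0.79) and Mrps31 (0.77) beside Cnn1, and Slc7a10 (0.77) and Ntrk2 (0.76) beside Des.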

How the data were processed

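RNA-seq was made from whole kidneys of 24 mice. Per the study's methods and the submitters' processing notes, the authors trimmed paired reads with Trim Galore 0.6.3, aligned them to GRCm38 with STAR 2.5.3a and counted reads per gene with an Ensembl annotation. The strand setting of the counting is not given in the sources used here. The deposited values are raw counts of 54532 genes, and 343 rows without a gene name held at most 0.0261% of the counts of a library. The total counts were 20.4 to 30.8 M per library, and intervals cover the spread between mice of a group.

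Counts were converted to log2 CPM with a prior count of 2 and total counts as library sizes. Genes whose log2 CPM averaged below -3 were left out, and 22570 genes were tested by limma-trend (limma 3.58.1, R 4.3.3) in a model with the 6 groups and all 24 libraries. Tests were two-sided with Benjamini-Hochberg adjustment over all genes tested and a threshold of 0.05. The fit of RC/- against RC/+ was also run on simulated counts with the same relative spread for all genes. Interactions and changes in genes with few reads were not simulated, so that run does not check them. Replicates of a group differed by more than sampling noise in all 39 pairs (chi-square per degree of freedom of 8.45 to 48.2), so each was counted once. Alternatives were TMM factors (edgeR 4.0.16), DESeq2 size factors, edgeR's quasi-likelihood test, DESeq2 1.42.0, no filter, a prior count of 0.5, sex as a covariate, a minimum log2 fold change of 1, a fit to the groups compared alone, libraries 20 to 27 as a covariate and leaving out each mouse. Representing RC/- D18 by replicates 18 and 19 alone was chosen after seeing the data.

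The 10 genes, the gene lists and the alternatives were chosen with earlier results of these data known, so they are not independent evidence of a direction. All 10 genes are described. From each other list up to 4 genes with the largest absolute log2 fold change among those called in RC/- against RC/+ were named, or the 2 largest where fewer than 2 were called. Of these, 1 gene is not reported here. The genes most like a member were the 2 (5 for Actg2) with the highest correlation among genes whose log2 CPM averaged 0 or more. Gene positions and exon overlaps are from GENCODE M21 (GRCm38), and miRNA and promoter sequences from RefSeq tables (GRCm38.p6).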

Additional observations from a re-analysis of the deposited data

Results flagged for a closer look

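In groups of 5 mice, a library was singled out where its gap to the nearest other library took more than 0.71 of the group's range (Dixon's 95% critical value). Of 27 groups tested, Actg2 being left out, 2 were singled out, and chance gives about 1 in 20. Both are RC/- D53 replicate 27. Tagln was at 1.26 CPM there and at 0.448 to 0.623 CPM in the other 4 mice, and Des at 27.9 CPM against 21.1 to 22.9 CPM. The sum of 7 urothelium markers was 105 CPM in this library and 39.6 to 58.6 CPM in the other 4. This library was also the group's highest for the fibroblast (2635 CPM) and vascular wall (701 CPM) sums. It was the group's lowest for the tubule and podocyte sum (7180 CPM). The part of these tissues in the Tagln and Des levels was not tested.

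The cystic difference differed between the edited line and the unedited groups by the interaction contrast (limma-trend, adjusted p below 0.05 over all genes). In the D18 line the contrast was -2.21 for Acta2, -2.18 for Tagln, -2.25 for Cnn1, -0.63 for Des and -1.19 for Tnc. In the D53 line it was -1.83 for Acta2, -1.94 for Tagln and -2.18 for Cnn1, and with libraries 20 to 27 as a covariate 0 of these 3 passed the threshold. Both lines are set against the same 3 RC/+ and 5 RC/- libraries.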

How the results depend on the processing

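Of 963 values of the 9 tested genes under alternatives, in RC/- against RC/+, both edited lines against RC/- and both interactions, 887 kept their direction and their side of the threshold, 60 lost the threshold, 10 gained it and 6 reversed. With libraries 20 to 27 as a covariate, the counts of genes lower than in RC/- were 4 (D18) and 2 (D53) in place of 8 and 8, the D53 interaction count was 0 in place of 3, and the 6 reversed values, none of which passed the threshold, were Postn 0.23, Pdgfrb 0.089 and Fn1 0.39 in RC/- D53 against RC/- and Postn 0.14, Fn1 0.14 and Tnc 0.070 in the D53 interaction. That term is estimated from 3 against 2 RC/- D18 mice. With a minimum log2 fold change of 1 the counts were 5 (D18) and 4 (D53), with RC/- D18 replicates 18 and 19 alone the D18 count was 4, and in a fit to the groups compared alone 1 gene passed in RC/- D53 against RC/+ D53 in place of 0. The cause of these changes was not tested. Leaving out each mouse gave 6 to 8 genes in RC/- against RC/+, 7 to 8 in D18 and 6 to 8 in D53 against RC/-, 4 to 6 and 2 to 4 in the interactions, and 0 in each other comparison. No paired analysis was made because the labels give no litter or other pairing of the mice. Tagln rested on 5 to 62 reads per library in RC/+ and RC/- kidneys, the fewest of the 10 genes.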
